A study of Mus musculus with 24 samples.

Results

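The 10 integrin genes described here, Itgal, Itgam, Itgb1, Itgb2, Itgb3, Itgb5, Itgb7, Itga4, Itga6, and Itgav, were taken by name from the 23930 amplicons measured, and all 10 were found. The study asked how loss of the lysosomal nucleoside transporter SLC29A3, with or without the RNA sensor TLR7, alters monocytes of the mouse spleen. RNA of sorted cells was read with a targeted panel of 1 amplicon per gene (Ion AmpliSeq), and values are reads per 1000000 reads (RPM). The 24 libraries form 6 groups of 4: Ly6Chi and Ly6Clow cells of WT mice, of Slc29a3-/- mice, and of Slc29a3-/- Tlr7-/- mice, all on the C57BL/6 background and untreated. Both mutant alleles were made with CRISPR guides and carry small coding changes, and the double mutants carry the Slc29a3 change too. The age of the sorted mice is not given in the sources used here. Beads first removed T cells, B cells, NK cells, neutrophils, and erythroid cells, and CD11b+ cells without NK1.1 and Ly6G were then sorted by Ly6C and FcγRIV, the product of Fcgr4. The deposited labels call the cells macrophages and the paper calls them monocytes. Nothing says that replicates came from separate mice, so P values measure the spread between these libraries.

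Integrins are adhesion receptors of the cell surface, each made of 1 alpha and 1 beta chain, and the partner chosen sets the ligand. Leukocytes carry the beta2 integrins, which hold cells to ICAM proteins and complement fragments, and the alpha4 integrins, which bind VCAM-1, MAdCAM-1, and fibronectin, whereas the alphav integrins recognise RGD motifs in matrix proteins and in bridging proteins on dying cells. Ly6Clow monocytes are known for crawling along the vessel wall with LFA-1, the pair of Itgal and Itgb2.

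Reads per library, inferred from the step between low values, ran from 12311031 to 14572210, so 3 reads correspond to 0.206 to 0.244 RPM, a floor for counting error alone, since amplified reads were not tied to single molecules. Every library held every member above that floor, and the lowest value was 1.45 RPM. Barcodes 11 to 16 mark WT replicates 1 to 3 of the 2 subsets, whereas WT replicate 4 carries barcode 29 (Ly6Chi) or 35 (Ly6Clow) and the mutants 24 to 46, so barcode set and genotype cannot be told apart for WT replicates 1 to 3. WT replicate 4 also lay apart from the other WT libraries. Results are therefore given without it and against it alone where that ends a call. In Ly6Chi cells, pairs of WT replicates 1 to 3 had a chi-square per degree of freedom of 6.19 to 8.77. Slc29a3-/- pairs had 21.9 to 84.4 and Slc29a3-/- Tlr7-/- pairs 47.4 to 112. In Ly6Clow cells the highest values were 35.5 among WT replicates 1 to 3, 19.8 in Slc29a3-/-, and 197 in Slc29a3-/- Tlr7-/- pairs. Whether WT replicates 1 to 3 are independent was not tested, and calls without WT replicate 4 rest partly on their spread. Slc29a3 itself stood at 163 to 225 RPM in Ly6Chi WT and 127 to 173 in Ly6Chi Slc29a3-/- cells, and Tlr7 at 298 to 479 in Ly6Clow WT and 355 to 627 in Ly6Clow Slc29a3-/- Tlr7-/- cells, so these transcripts were present in the mutants and their levels do not check the labels. The summed level of 4 measured Ly6Chi monocyte markers was 2319 to 6768 RPM in Ly6Chi and 13.6 to 269 in Ly6Clow libraries, and that of 7 Ly6Clow markers 908 to 2565 and 5532 to 9626. In Ly6Chi cells the sum of 9 neutrophil genes was 23828 to 32580.0 RPM in WT, 73546 to 135775 in Slc29a3-/-, and 13185 to 39393 in Slc29a3-/- Tlr7-/- libraries, and that of 6 progenitor genes 314 to 413, 738 to 2567, and 321 to 829.7. The gated-out neutrophil marker Ly6g stood at 17.9 to 33.5, 59.2 to 139, and 2.77 to 39.8 RPM. By limma (fold over 1.5, adjusted P under 0.05), 7 neutrophil genes were called higher and 1 lower in Slc29a3-/- than in WT Ly6Chi cells. Of the progenitor genes 4 were called higher and 1 lower, beside 22.4% of all genes. In Ly6Clow libraries the neutrophil sum was 2.62 to 2321 RPM, and its part in the subset differences was not tested.

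Promoter sequence was available from RefSeq (GRCm38.p6) for 6 members, Itgam, Itgb1, Itgb5, Itgb7, Itga4, and Itgav, from 250 bases before to 50 bases after the gene start. Of these, 4 are printed because they stand on both sides of the main subset difference: Itgb1 (chr8:128685404-128685703, plus strand), Itgb5 (chr16:33829415-33829714, plus strand), and Itgav (chr2:83724147-83724446, plus strand) were higher in Ly6Clow cells of every genotype, and Itgb7 (chr15:102231886-102232185, minus strand) was lower there in WT. Each runs 5′ to 3′, and capitals mark GAGGAA, a motif of the ETS family factor PU.1, or GGGCGG, the GC box, on either strand (TTCCTC and CCGCCC are the reverse complements).

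Itgb1: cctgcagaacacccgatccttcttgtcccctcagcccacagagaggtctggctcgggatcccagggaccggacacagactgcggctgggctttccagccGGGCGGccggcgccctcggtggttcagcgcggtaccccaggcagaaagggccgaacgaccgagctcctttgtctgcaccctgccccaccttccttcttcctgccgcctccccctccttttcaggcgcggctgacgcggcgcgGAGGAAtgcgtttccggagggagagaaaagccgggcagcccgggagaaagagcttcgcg
Itgb5: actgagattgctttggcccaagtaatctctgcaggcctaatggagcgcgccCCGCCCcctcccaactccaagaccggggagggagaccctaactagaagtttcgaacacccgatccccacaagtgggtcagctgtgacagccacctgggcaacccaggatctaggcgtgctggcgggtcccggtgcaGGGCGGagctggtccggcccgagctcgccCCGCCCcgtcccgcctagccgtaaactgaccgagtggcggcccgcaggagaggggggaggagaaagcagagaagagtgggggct
Itgav: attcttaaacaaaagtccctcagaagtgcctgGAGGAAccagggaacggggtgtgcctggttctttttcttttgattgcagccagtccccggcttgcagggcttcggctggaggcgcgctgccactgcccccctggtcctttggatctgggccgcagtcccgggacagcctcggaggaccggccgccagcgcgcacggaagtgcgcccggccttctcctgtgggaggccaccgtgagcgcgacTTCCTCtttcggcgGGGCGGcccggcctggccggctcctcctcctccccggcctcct
Itgb7: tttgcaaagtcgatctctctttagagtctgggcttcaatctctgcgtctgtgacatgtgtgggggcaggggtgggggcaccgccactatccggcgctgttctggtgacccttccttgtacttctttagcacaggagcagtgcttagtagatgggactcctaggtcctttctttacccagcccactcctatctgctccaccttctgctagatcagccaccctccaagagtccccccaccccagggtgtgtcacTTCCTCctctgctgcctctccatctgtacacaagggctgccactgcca

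GAGGAA was found 1 time in Itgb1, 2 times in Itgav, and 1 time in Itgb7, with no match in Itgb5, and 28.1% of the 32544 mouse promoters of that length hold it. GGGCGG was found 1 time in Itgb1, 3 times in Itgb5, and 1 time in Itgav, with no match in Itgb7, against 35.9% of all promoters. Of the members not printed, Itgam held GAGGAA 3 times and GGGCGG 1 time, and Itga4 held GGGCGG 1 time. Neither TATAAA, held by 13.6% of promoters, nor the NR4A response element AAAGGTCA, held by 1.52%, had a match in any of the 6 windows. The motifs share no bases in these windows, and a match is a description of letters and not a binding site.

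Relative to Ly6Chi cells of the same genotype, Itgal, Itgb2, Itgb1, Itgav, and Itgb5 were higher in Ly6Clow cells of all 3 genotypes and Itga6 was lower in all 3, at a fold change over 1.5 and a Benjamini-Hochberg adjusted P under 0.05 (limma on log2(RPM + 1)). In WT cells 5 members were called higher and 2 lower, where 25.9% of the 11042 genes tested were called, 8.46% higher and 17.5% lower. In Slc29a3-/- cells 7 were higher and 1 lower, beside 35% of all genes, 18.5% higher and 16.5% lower. In Slc29a3-/- Tlr7-/- cells 6 were higher and 2 lower, beside 28.3%, 9.64% and 18.7%. The median member difference was 0.73, 1.24, and 1.09 on the log2 scale in these 3 comparisons, and that of all genes was -0.07, 0.10, and -0.12. In bulk samples, fewer cells of a type and less RNA per cell cannot be told apart.

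**Figure D1:**
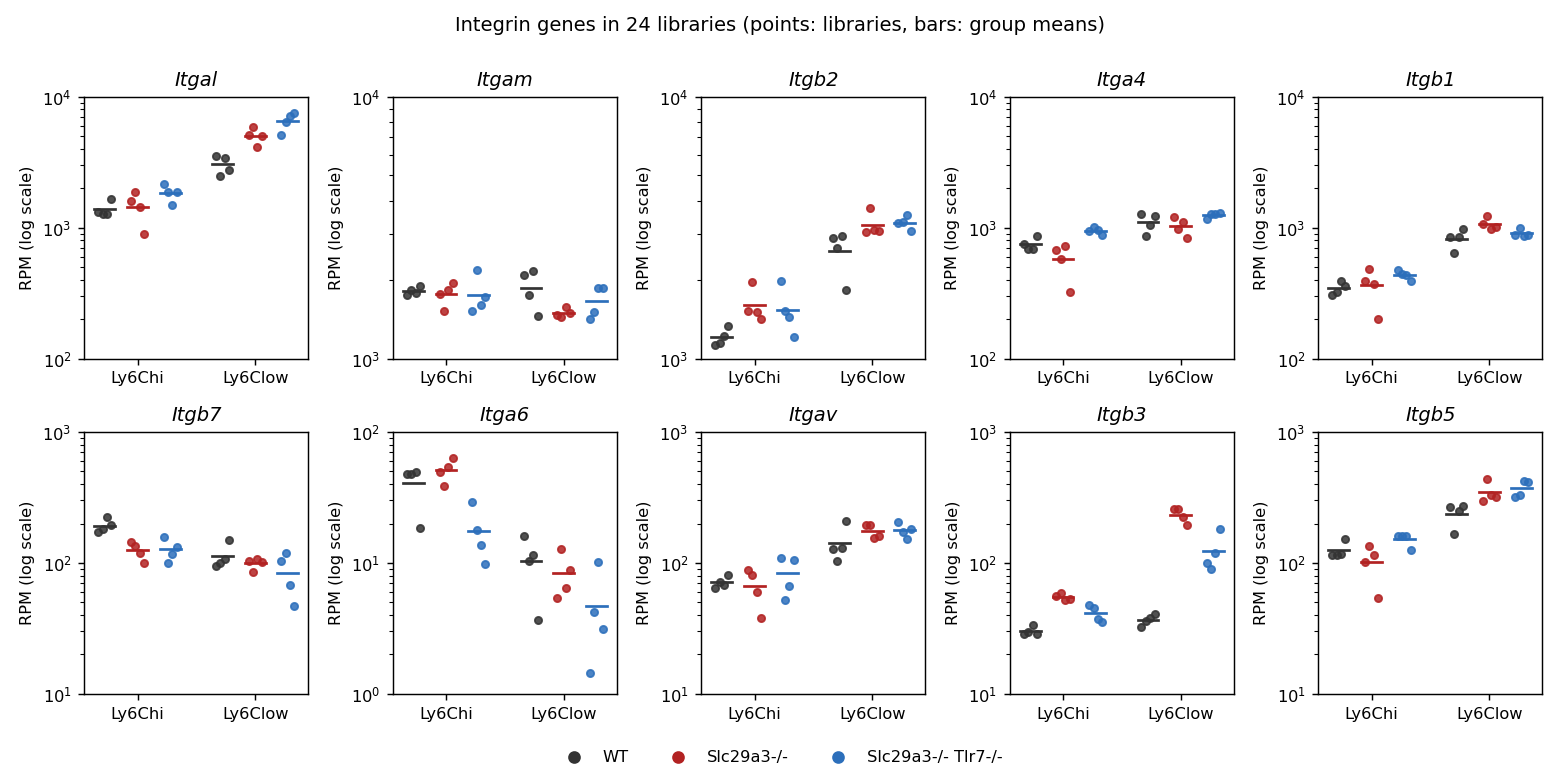
RPM on a log axis of the 10 integrin genes, 1 panel per gene, in the 6 groups of subset and genotype. Points are libraries and bars are group means of 4 libraries. Itgb3 stands highest in Ly6Clow Slc29a3-/- cells, Itgal rises from WT to mutant Ly6Clow cells, and Itgam has overlapping values in neighbouring groups throughout.

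The beta2 integrins pair Itgb2 with Itgal (CD11a, in LFA-1) or with Itgam (CD11b, in Mac-1). Itgal (chr7:127296260-127335138, mm10) was at 1312, 1268, 1278, and 1658 RPM in the 4 Ly6Chi WT libraries and at 3525, 2483, 3412, and 2769 in Ly6Clow WT (log2 fold change 1.14, SE 0.20, adjusted P = 7.03e-05). In Slc29a3-/- mice it was at 1582, 1855, 1441, and 893 in Ly6Chi and 5115, 5897, 4156, and 5017 in Ly6Clow libraries (log2 fold change 1.84, SE 0.20, adjusted P = 3.02e-08). In Slc29a3-/- Tlr7-/- mice the values were 2148, 1875, 1492, and 1868 and 5058, 6349.6, 7069.5, and 7528 (log2 fold change 1.81, SE 0.20, adjusted P = 7.99e-08). Every Ly6Clow library lay above every Ly6Chi library, and among group means the order was Slc29a3-/- Tlr7-/- and Slc29a3-/- Ly6Clow, whose values overlapped, then WT Ly6Clow, then the 3 overlapping Ly6Chi groups.

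Itgb2 (chr10:77530252-77565708), the shared beta2 chain, had Ly6Chi means ± SD (n = 4) of 1209 ± 93.2 RPM in WT, 1597 ± 241 in Slc29a3-/-, and 1536 ± 320.5 in Slc29a3-/- Tlr7-/- cells, and Ly6Clow means of 2572 ± 512, 3237 ± 355, and 3297 ± 183. It was higher in Ly6Clow cells by 1.07, 1.02, and 1.12 on the log2 scale (adjusted P = 1.42e-05, 1.4e-05, and 6.41e-06). Itgam (chr7:128062640-128118491), whose product CD11b was itself used to sort the cells, stood at 1809 ± 61.4, 1763 ± 177, and 1755 ± 289.9 RPM in Ly6Chi and 1865 ± 329, 1489 ± 59.7, and 1658 ± 237 in Ly6Clow cells of the same genotypes. The subset difference of Itgam was not called in any genotype, with 95% intervals of -0.27 to 0.33 in WT, -0.54 to 0.06 in Slc29a3-/-, and -0.38 to 0.22 in Slc29a3-/- Tlr7-/- cells on the log2 scale. Among the 10 members, Itgam had the narrowest span of group means, 0.31 on the log2 scale, and neighbouring groups overlapped throughout.

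Itga4 (chr2:79255426-79333123) encodes the alpha4 chain of VLA-4 with Itgb1 and of the gut-homing receptor with Itgb7. It was at 749 ± 85.6, 574 ± 177, and 947 ± 58.2 RPM in Ly6Chi cells (WT, Slc29a3-/-, Slc29a3-/- Tlr7-/-) and at 1102 ± 185, 1030.4 ± 162, and 1251 ± 58.8 in Ly6Clow cells. The subset difference was called in Slc29a3-/- cells (log2 fold change 0.89, SE 0.19, adjusted P = 0.000377). In WT cells it was 0.55 (adjusted P = 0.0277), under the fold limit, and it passed that limit with TMM scaling (0.62), with RLE scaling (0.61), without Ly6Chi WT replicate 4 (0.62), and without Ly6Clow WT replicate 2 (0.66). In Slc29a3-/- Tlr7-/- cells the difference was 0.40 and was not called (adjusted P = 0.102).

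Itgb1 (chr8:128685654-128733200), the beta1 chain of VLA-4 and of many matrix receptors, was at 303, 321, 392, and 357 RPM in Ly6Chi WT and at 841, 638, 842, and 969 in Ly6Clow WT libraries. The 12 Ly6Clow libraries, from 638 to 1223 RPM, all lay above the 12 Ly6Chi libraries, from 202 to 479. The log2 differences were 1.25, 1.62, and 1.06 in WT, Slc29a3-/-, and Slc29a3-/- Tlr7-/- cells (adjusted P = 8.66e-06, 8.27e-08, and 6.83e-05). Itgb7 (chr15:102215995-102231944), the other beta partner of Itga4, lay the other way, at 171, 182, 223, and 197 in Ly6Chi WT and 94.6, 101, 108, and 151 in Ly6Clow WT libraries (log2 fold change -0.78, SE 0.21, adjusted P = 0.00688). Every Ly6Chi WT library was above every Ly6Clow WT library, and the Ly6Chi WT mean was the 1 group mean of Itgb7 that stood clear of its neighbour.

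The subset difference of Itgb7 was -0.32 in Slc29a3-/- cells, which was not called (adjusted P = 0.246), and -0.65 in Slc29a3-/- Tlr7-/- cells (adjusted P = 0.0204). The latter call ended under TMM (-0.56) and RLE (-0.55) scaling, which put the fold under 1.5, with no filter (adjusted P = 0.0576), and without Ly6Chi Slc29a3-/- Tlr7-/- replicate 1 (-0.54) or Ly6Clow Slc29a3-/- Tlr7-/- replicate 3 (-0.59) or 4 (-0.41). Itga6 (chr2:71745616-71858416), the alpha6 chain of laminin receptors with Itgb1 or Itgb4, was at 47.4, 47.6, 49.7, and 18.6 RPM in Ly6Chi WT and 16, 10.3, 11.6, and 3.68 in Ly6Clow WT libraries (log2 fold change -1.92, SE 0.42, adjusted P = 0.00103). Ly6Chi WT replicate 4 was low for its group but still above all Ly6Clow WT libraries. In the mutants the subset difference of Itga6 was -2.52 (Slc29a3-/-, adjusted P = 2.9e-05) and -1.82 (Slc29a3-/- Tlr7-/-, adjusted P = 0.0016), and its span of group means, 3.39 on the log2 scale, was the widest of the 10 members although neighbouring groups overlapped.

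Itgav (chr2:83724397-83806916) encodes the alphav chain, and Itgb3 (chr11:104608000-104670476) and Itgb5 (chr16:33829665-33949338) encode beta chains that pair with it in vitronectin receptors. Itgav was at 71.4 ± 7.44, 66.7 ± 22.3, and 83.2 ± 28.2 RPM in Ly6Chi cells (WT, Slc29a3-/-, Slc29a3-/- Tlr7-/-) and at 143 ± 46.4, 177 ± 21.6, and 178 ± 21.4 in Ly6Clow cells (log2 differences 0.94, 1.45, and 1.15, adjusted P = 0.00403, 2.61e-05, and 0.000622). Itgb5 was higher in Ly6Clow cells by 0.91, 1.82, and 1.28 (adjusted P = 0.00169, 1.22e-07, and 3.55e-05). Itgb3 differed between subsets in the mutants, by 2.07 in Slc29a3-/- and 1.502 in Slc29a3-/- Tlr7-/- cells (adjusted P = 3.22e-10 and 1.31e-07), and in WT cells the difference of 0.27 was not called (adjusted P = 0.246, interval -0.07 to 0.62). With WT replicate 4 as the single WT library of each subset, Itgb1 was the 1 member called between WT subsets, and the other 6 called members had log2 differences of 0.74 (Itgal), 0.45 (Itgb2), 0.82 (Itgb5), 1.35 (Itgav), -0.38 (Itgb7), and -2.07 (Itga6), with adjusted P of 0.137 to 0.769 and the spread taken from the mutant groups.

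**Figure D2:**
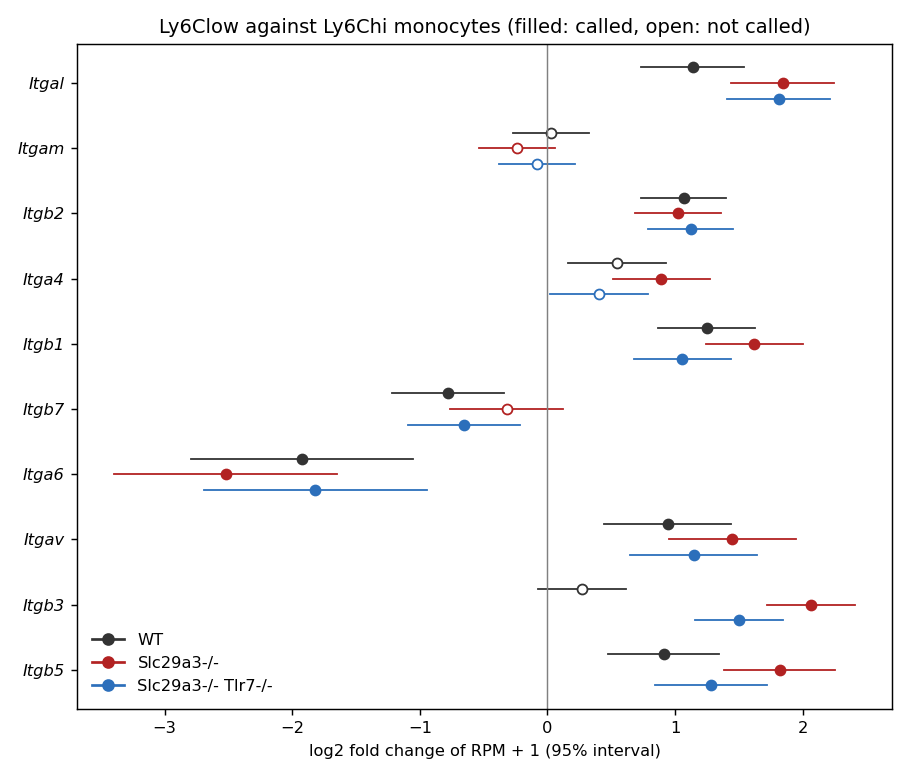
Log2 fold change of Ly6Clow against Ly6Chi cells for each integrin gene in WT, Slc29a3-/-, and Slc29a3-/- Tlr7-/- mice, with 95% intervals. Filled points passed the fold and adjusted P limits. Itgal, Itgb1, Itgb2, Itgb5, and Itgav lie right of 0 and Itga6 left of 0 in every genotype, and Itgb3 lies far right in the mutants.

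Among Ly6Clow cells, Slc29a3-/- was compared with WT to ask what loss of the transporter changes, and 2 members were called higher, Itgb3 and Itgal, and 0 lower, where 4.43% of the 10317 genes tested were called, 1.9% higher and 2.53% lower. With 1 library left out, 198 (without WT replicate 3) to 1396 (without WT replicate 4, 795 higher and 601 lower) of all genes were called in place of 457. Leaving out any of 9 of the 12 libraries moved that count by over 1.5 times. By unadjusted P under 0.05 (limma), 4 members differed. With the fold limit as well, 2 did, beside 13.2% of all genes. Itgb3, the beta3 chain, was at 32.2, 36.2, 37.8, and 41.0 RPM in Ly6Clow WT libraries, at 257, 258, 226, and 195 in Slc29a3-/- libraries, and at 100.1, 89.8, 119, and 183 in Slc29a3-/- Tlr7-/- libraries. The 3 genotypes did not overlap, with WT lowest and Slc29a3-/- highest. Itgb3 was 6.20-fold higher in Slc29a3-/- than in WT cells (log2 fold change 2.63, SE 0.20, adjusted P = 1.1e-05). The log2 value was 2.68 without WT replicate 4 and 2.47 against WT replicate 4 alone (adjusted P = 0.0257).

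Itgb3 was also 3.17-fold higher in Slc29a3-/- Tlr7-/- than in WT Ly6Clow cells (log2 fold change 1.66, SE 0.20, adjusted P = 0.0016), and 1.51 on the log2 scale against WT replicate 4 alone, where it was not called (adjusted P = 0.393). Slc29a3-/- cells exceeded Slc29a3-/- Tlr7-/- cells by 1.96-fold (log2 fold change 0.97, SE 0.20, adjusted P = 0.0178), a comparison of the mutants alone in which Itgb3 was the 1 member called, beside 1.93% of all genes, 1.22% higher and 0.708% lower (199 genes, and 90 without Slc29a3-/- replicate 4 to 430 without Slc29a3-/- Tlr7-/- replicate 2). That call ended with no filter (adjusted P = 0.0719) and without Slc29a3-/- replicate 1 (0.92, adjusted P = 0.0683), 2 (0.92, 0.0841), or 3 (0.98, 0.0621) or Slc29a3-/- Tlr7-/- replicate 3 (0.97, 0.0566). Platelets also carry beta3, as a pair with Itga2b. The summed level of 10 platelet markers was 17.5 to 37.6 RPM in Ly6Clow WT, 19.8 to 25.6 in Slc29a3-/-, and 18.0 to 37.7 in Slc29a3-/- Tlr7-/- libraries, Treml1 was at 0 in all 4 Slc29a3-/- libraries, and Itga2b had means of 3.69, 4.78, and 3.33 RPM. The summed level of 4 erythroid genes was 35.2 to 42.1 RPM in Slc29a3-/- against 2.39 to 5.83 in WT Ly6Clow libraries, and its part in the Itgb3 result was not tested. In the WT, Slc29a3-/-, and Slc29a3-/- Tlr7-/- Ly6Clow libraries, the summed level of 6 red pulp macrophage genes was 570.3 to 637, 786 to 1056, and 517 to 1600.2 RPM. That of 5 conventional dendritic cell genes was 34.3 to 68.7, 12.96 to 26.2, and 40.7 to 70.5, and that of 4 Ly6Chi monocyte genes was 90.6 to 269, 40.5 to 89.9, and 13.6 to 151. In these 3 lists the Slc29a3-/- libraries did not overlap WT. Of the 6 red pulp macrophage genes, 2 were called higher and 1 lower in that comparison, beside 4.43% of all genes. Of the conventional dendritic cell genes 0 were called higher and 3 lower, and of the Ly6Chi monocyte genes 0 and 0. The part of these transcripts in the Ly6Clow genotype results was not tested. Fcgr4, used in the sort, stood at 605 to 821, 2323 to 3017, and 1306 to 1750.1 RPM in the 3 Ly6Clow groups, and its part was not tested either.

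Itgal rose in both mutant Ly6Clow groups, from a mean of 3047 ± 502 RPM in WT to 5046 ± 712 in Slc29a3-/- (log2 fold change 0.73, SE 0.18, adjusted P = 0.0325) and 6501 ± 1078 in Slc29a3-/- Tlr7-/- cells (log2 fold change 1.09, SE 0.18, adjusted P = 0.00669). Every mutant library was above every WT library. T and NK cells also carry Itgal, and the summed level of 5 T cell genes was 15.7 to 76.0, 7.08 to 13.4, and 26.1 to 46.7 RPM and that of 5 NK cell genes 21.4 to 116, 8.42 to 32.5, and 2.14 to 24.3 in the WT, Slc29a3-/-, and Slc29a3-/- Tlr7-/- Ly6Clow libraries. Slc29a3-/- Tlr7-/- and WT Ly6Clow libraries did not overlap in the summed level of 9 neutrophil genes (2.62 to 45.7 and 61.5 to 2321 RPM), 6 progenitor genes (8.24 to 11.4 and 17.9 to 66.1), and 5 eosinophil genes (6.07 to 12.2 and 16.1 to 44.1). The part of all these lists was not tested. The difference of -0.36 between the mutants was not called (adjusted P = 0.279, interval -0.75 to 0.02). For Slc29a3-/- against WT the log2 value stayed between 0.64 and 0.85 but the call ended under TMM (adjusted P = 0.0535) and RLE (0.0591) scaling, with no filter (0.155), and against WT replicate 4 alone (0.357). It also ended without WT replicate 1 (0.81, adjusted P = 0.0514), 2 (0.64, 0.119), or 3 (0.79, 0.0669) and without Slc29a3-/- replicate 1 (0.72, 0.0889), 2 (0.65, 0.121), or 4 (0.73, 0.0958). For Slc29a3-/- Tlr7-/- against WT the call was lost against WT replicate 4 alone (1.21, adjusted P = 0.393).

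In Slc29a3-/- Tlr7-/- against WT Ly6Clow cells 3 members were called higher, Itgb3, Itgal, and Itgb5, and 0 lower, beside 8.31% of all genes, 2.28% higher and 6.03% lower. These are 857 genes, and 100 (without WT replicate 3) to 1780 (without WT replicate 4, 875 higher and 905 lower) were called with 1 library left out. Itgb5, the beta5 chain, was at 266, 167, 250.3, and 270.1 RPM in Ly6Clow WT, 299, 439, 333, and 317 in Slc29a3-/-, and 321, 328, 425, and 415 in Slc29a3-/- Tlr7-/- libraries. Both mutant groups lay above WT without overlap, and overlapped each other. The difference from WT was called in Slc29a3-/- Tlr7-/- cells (log2 fold change 0.66, SE 0.18, adjusted P = 0.042) and not in Slc29a3-/- cells (log2 fold change 0.55, SE 0.18, adjusted P = 0.101), where it was called without WT replicate 4 (0.62, adjusted P = 0.045). The call in Slc29a3-/- Tlr7-/- cells ended with no filter (adjusted P = 0.106), against WT replicate 4 alone (0.45, 0.475), without WT replicate 1 (0.72), 2 (0.49), or 3 (0.69), without Slc29a3-/- Tlr7-/- replicate 3 (0.59) or 4 (0.60), and without Slc29a3-/- replicate 1, 3, or 4, which enter through the shared spread (adjusted P = 0.0585, 0.0622, and 0.0619). Itga6 differed by -1.07 on the log2 scale between Slc29a3-/- Tlr7-/- and WT Ly6Clow cells without a call (adjusted P = 0.136), and was called without WT replicate 4 (-1.45, adjusted P = 0.0325). The other members, Itgam, Itgb2, Itga4, Itgb1, Itgb7, and Itgav, were not called in any Ly6Clow genotype comparison. Itgb2 still lay above WT without overlap in Slc29a3-/- (log2 fold change 0.35, adjusted P = 0.256) and Slc29a3-/- Tlr7-/- cells (0.38, adjusted P = 0.145). Itgb1 did so in Slc29a3-/- cells (log2 fold change 0.39, adjusted P = 0.151). Over the 10 members the median log2 change in Ly6Clow cells was 0.35 for Slc29a3-/- against WT, 0.28 for Slc29a3-/- Tlr7-/- against WT, and -0.02 between the mutants, and over all genes 0.00, -0.10, and 0.08.

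**Figure D3:**
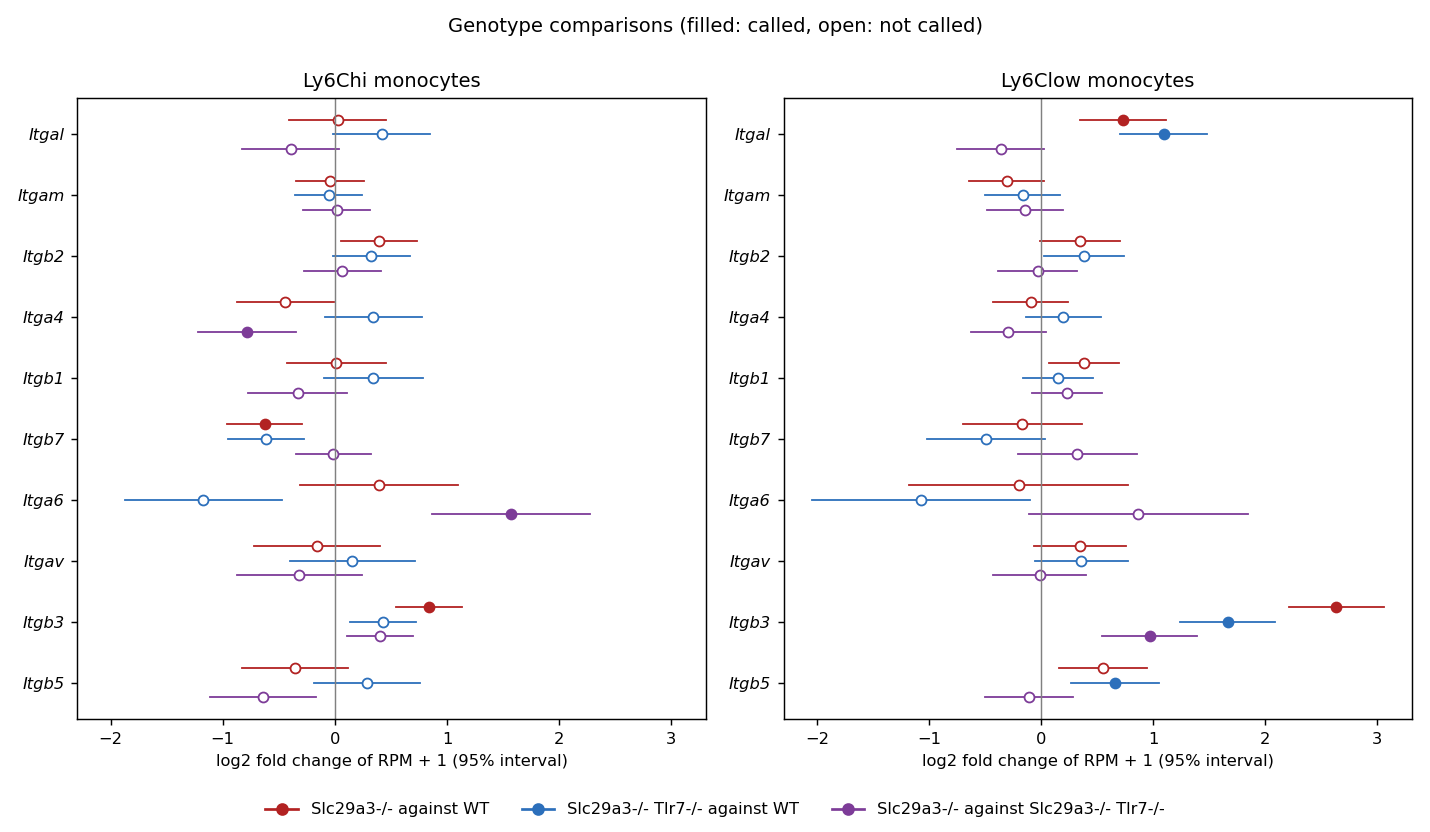
Log2 fold change with 95% intervals of each integrin gene for the 3 genotype comparisons, in Ly6Chi cells (left) and Ly6Clow cells (right). Filled points passed the fold and adjusted P limits. Itgb3 in Ly6Clow cells is filled and right of 0 in all 3 comparisons, and Itga6 and Itga4 are filled on opposite sides of 0 between the mutants in Ly6Chi cells.

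In Ly6Chi cells of Slc29a3-/- against WT mice 1 member was called higher, Itgb3, and 1 lower, Itgb7, where 22.4% of the 10561 genes tested were called, 8.15% higher and 14.3% lower, so 2 of 10 members is near that share. Itgb3 was at 28.7, 29.7, 33.7, and 28.9 RPM in Ly6Chi WT, 55.7, 59.0, 51.7, and 52.8 in Slc29a3-/-, and 47.8, 45.6, 37.1, and 35.1 in Slc29a3-/- Tlr7-/- libraries. The 3 groups did not overlap, in the order WT, Slc29a3-/- Tlr7-/-, and Slc29a3-/-. Only the difference of Slc29a3-/- from WT was called (log2 fold change 0.84, SE 0.14, adjusted P = 0.000853), and against WT replicate 4 alone it was 0.90 (adjusted P = 0.101). Slc29a3-/- against Slc29a3-/- Tlr7-/- gave 0.41 (adjusted P = 0.0503) and Slc29a3-/- Tlr7-/- against WT gave 0.43 (adjusted P = 0.094). Platelet marker sums were 19.4 to 66.6, 19.7 to 42.8, and 23.7 to 85.5 RPM in the 3 Ly6Chi groups.

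Itgb7 was at 145, 136, 120.0, and 100.4 RPM in Ly6Chi Slc29a3-/- and 158, 101, 117, and 131 in Slc29a3-/- Tlr7-/- libraries, all below the WT values given above. The difference from WT was called in Slc29a3-/- cells (log2 fold change -0.63, SE 0.16, adjusted P = 0.00941) and not in Slc29a3-/- Tlr7-/- cells (log2 fold change -0.61, SE 0.16, adjusted P = 0.0619). In Slc29a3-/- cells the fold came under 1.5 with TMM (-0.46) and RLE (-0.51) scaling, without WT replicate 3 (-0.56), and without Slc29a3-/- replicate 4 (-0.53), and the value was -0.66 against WT replicate 4 alone (adjusted P = 0.258). In Slc29a3-/- Tlr7-/- cells the difference passed both limits with RLE scaling (-0.60) and without WT replicate 4 (-0.60), Slc29a3-/- replicate 4 (-0.61), or Slc29a3-/- Tlr7-/- replicate 1 (-0.73). The summed level of 5 T cell genes was 39.3 to 127 RPM in WT, 5.79 to 11.9 in Slc29a3-/-, and 16.7 to 45.4 in Slc29a3-/- Tlr7-/- Ly6Chi libraries, and that of 5 NK cell genes 105 to 469, 19.9 to 41.3, and 8.94 to 665. That of 5 conventional dendritic cell genes was 75.7 to 102, 15.1 to 36.8, and 86.3 to 110.2. The sum of 4 B cell genes was 30.3 to 38.7, 14.5 to 20.8, and 15.4 to 38.1 RPM. That of 4 plasmacytoid dendritic cell genes was 204 to 302, 87.9 to 165, and 219 to 299, and that of 5 eosinophil genes 19.5 to 113, 7.27 to 36.0, and 7.13 to 12.3. The part of these lists in the Itgb7 result was not tested. In Slc29a3-/- Tlr7-/- against WT Ly6Chi cells, 0 members were called higher and 0 lower by limma with adjusted P. This stands beside 1.42% of all genes called, 0.312% higher and 1.11% lower. By unadjusted P under 0.05 (limma), 3 members differed. With the fold limit as well, 2 did, beside 12.6% of all genes. Leaving out any 1 of the 12 libraries moved the 150 genes called by over 1.5 times. The count was 1 for 6 of the libraries and 1040 (327 higher and 713 lower) without WT replicate 4.

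Between the mutants, Ly6Chi cells of Slc29a3-/- mice had 1 member called higher than Slc29a3-/- Tlr7-/- cells, Itga6, and 1 lower, Itga4, beside 17.2% of all genes, 9% higher and 8.22% lower (1819 genes, and 1126 without Slc29a3-/- replicate 4). Itga6 was at 49.1, 38.6, 53.9, and 63.5 RPM in Slc29a3-/- and 29.3, 18.0, 13.7, and 9.78 in Slc29a3-/- Tlr7-/- libraries (log2 fold change 1.57, SE 0.33, adjusted P = 0.00431). No library of the first group was as low as any of the second. Against WT, Itga6 was 0.40 in Slc29a3-/- (adjusted P = 0.396) and -1.17 in Slc29a3-/- Tlr7-/- cells (adjusted P = 0.0723), and the latter was called without WT replicate 4 (-1.504, adjusted P = 0.00446) and without Slc29a3-/- Tlr7-/- replicate 1 (-1.44). Itga4 was at 675, 577, 719, and 324 in Slc29a3-/- and 946, 1017, 951, and 874 in Slc29a3-/- Tlr7-/- libraries (log2 fold change -0.78, SE 0.20, adjusted P = 0.0145), without overlap. Replicate 4 of Slc29a3-/- was far below the others, and without it the difference was -0.53, under the fold limit, and with no filter the adjusted P was 0.0768. That library was the lowest of its group for 7 of the 10 members and held the highest neutrophil sum of the group, 135775 RPM. The part of neutrophil and progenitor transcripts in the Ly6Chi results was not tested.

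For Itgb5 the log2 change of Ly6Chi cells from Slc29a3-/- Tlr7-/- to Slc29a3-/- mice was -0.65 and was not called (adjusted P = 0.0519), at 102, 134, 115, and 54.5 and 159.7, 161, 161, and 127 RPM, where replicate 2 of the first group lay above replicate 4 of the second. It was called in the fit of all 24 libraries (adjusted P = 0.0333) and without WT replicate 4 (-0.65), Slc29a3-/- replicate 2 (-0.80), or Slc29a3-/- Tlr7-/- replicate 4 (-0.73). Itgal, Itgam, Itgb1, Itgb2, and Itgav were not called in any of the 3 Ly6Chi genotype comparisons. The 95% intervals for Slc29a3-/- against WT were -0.41 to 0.46 for Itgal, -0.34 to 0.26 for Itgam, -0.43 to 0.45 for Itgb1, and -0.72 to 0.40 for Itgav. For Itgb2 the interval was 0.05 to 0.74 (log2 fold change 0.39, adjusted P = 0.0815), and every Slc29a3-/- library lay above every WT library. The median log2 change of the members was -0.01 in Slc29a3-/- and 0.31 in Slc29a3-/- Tlr7-/- against WT and -0.16 between the mutants, and that of all genes -0.14, -0.06, and -0.12.

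The effect of Slc29a3 loss was compared between the subsets as a contrast of the 2 log2 changes from WT. It was called for 1 member, Itgb3, higher in Ly6Clow by 1.79 (SE 0.24, adjusted P = 5.81e-05, interval 1.30 to 2.28), and for 0 members in the other direction, beside 8.76% of all genes, 4.65% higher and 4.11% lower. With WT replicate 4 as the single WT library of each subset it was 1.57 (adjusted P = 0.112). Itgal (0.71, adjusted P = 0.12) and Itgb5 (0.91, adjusted P = 0.0583) were not called, although Itgb5 was called with genotype and replicate number as a block (adjusted P = 0.0334) and without Ly6Chi Slc29a3-/- replicate 2 (1.07), Ly6Clow WT replicate 4 (0.98), or Ly6Clow Slc29a3-/- Tlr7-/- replicate 4 (adjusted P = 0.0493). For the difference between the mutants, the contrast of subsets called 0 members higher and 0 lower by limma. This stands beside 8.94% of all genes, 4.41% higher and 4.53% lower. By unadjusted P under 0.05 (limma), 2 members differed. With the fold limit as well, 0 did, beside 22.6% of all genes. For Itgb3 the contrast was 0.56 (adjusted P = 0.138), and it was called without Ly6Clow Slc29a3-/- Tlr7-/- replicate 4 (0.77, adjusted P = 0.0143).

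Chains that share 1 partner were set against each other in each library as a log2 ratio of RPM + 1. A scaling of the library cancels in it except for the added 1. The size of a ratio depends on the amplicons, so only its change between groups is read. In all, 27 exact two-sided permutation tests were made after the data were seen, and 4 against 4 libraries cannot go below P = 0.029. Tests at that limit had an adjusted P of 0.048, a value that depends on how many of the 27 tests reached it. For Itgal over Itgam, the alpha chains of Itgb2, the Ly6Clow values were 0.75, 0.50, 0.66, and 0.93 in WT, 1.81, 2.04, 1.40, and 1.75 in Slc29a3-/-, and 1.84, 2.08, 1.93, and 2.01 in Slc29a3-/- Tlr7-/- libraries. Both mutants lay above WT without overlap, by 1.04 and 1.26 (exact permutation P = 0.029 for each), and by 0.82 and 1.03 against WT replicate 4 alone. In Ly6Chi cells the means were -0.40 ± 0.15, -0.33 ± 0.59, and 0.07 ± 0.31 (SD, n = 4), and no genotype pair was free of overlap. The ratio was higher in Ly6Clow than in Ly6Chi cells by 1.11, 2.08, and 1.89 in the 3 genotypes (exact permutation P = 0.029 for each), and by 1.12 between the libraries of WT replicate 4.

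For Itgb1 over Itgb7, the beta chains of Itga4, the means were 0.83 ± 0.02, 1.47 ± 0.35, and 1.78 ± 0.27 in Ly6Chi cells (WT, Slc29a3-/-, Slc29a3-/- Tlr7-/-) and 2.86 ± 0.23, 3.41 ± 0.29, and 3.50 ± 0.54 in Ly6Clow cells. Ly6Clow exceeded Ly6Chi by 2.03, 1.94, and 1.71 without overlap (exact permutation P = 0.029 for each). Slc29a3-/- exceeded WT by 0.64 in Ly6Chi and 0.55 in Ly6Clow cells, and Slc29a3-/- Tlr7-/- exceeded WT by 0.96 in Ly6Chi cells (exact permutation P = 0.029 for each), whereas the 0.64 in Ly6Clow cells came with overlap (exact permutation P = 0.086). Against WT replicate 4 alone the differences without overlap were 0.61, 0.73, and 0.93, and the WT subset difference was 1.82. For Itgb3 over Itgb5, beta chains of Itgav, the Ly6Clow values were -3.01, -2.17, -2.70, and -2.69 in WT, -0.22, -0.77, -0.56, and -0.70 in Slc29a3-/-, and -1.67, -1.86, -1.83, and -1.18 in Slc29a3-/- Tlr7-/- libraries. The 3 genotypes did not overlap, and the differences were 2.08 for Slc29a3-/- and 1.01 for Slc29a3-/- Tlr7-/- against WT and 1.08 between the mutants (exact permutation P = 0.029 for each). In Ly6Chi cells Slc29a3-/- exceeded WT by 1.20 and Slc29a3-/- Tlr7-/- by 1.05 (exact permutation P = 0.029 for each), and Slc29a3-/- Tlr7-/- differed from WT by 0.15 (exact permutation P = 0.43). Against WT replicate 4 alone, Slc29a3-/- differed by 2.13 in Ly6Clow and 1.55 in Ly6Chi cells, and Slc29a3-/- Tlr7-/- by 1.05 in Ly6Clow cells.

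**Figure D4:**
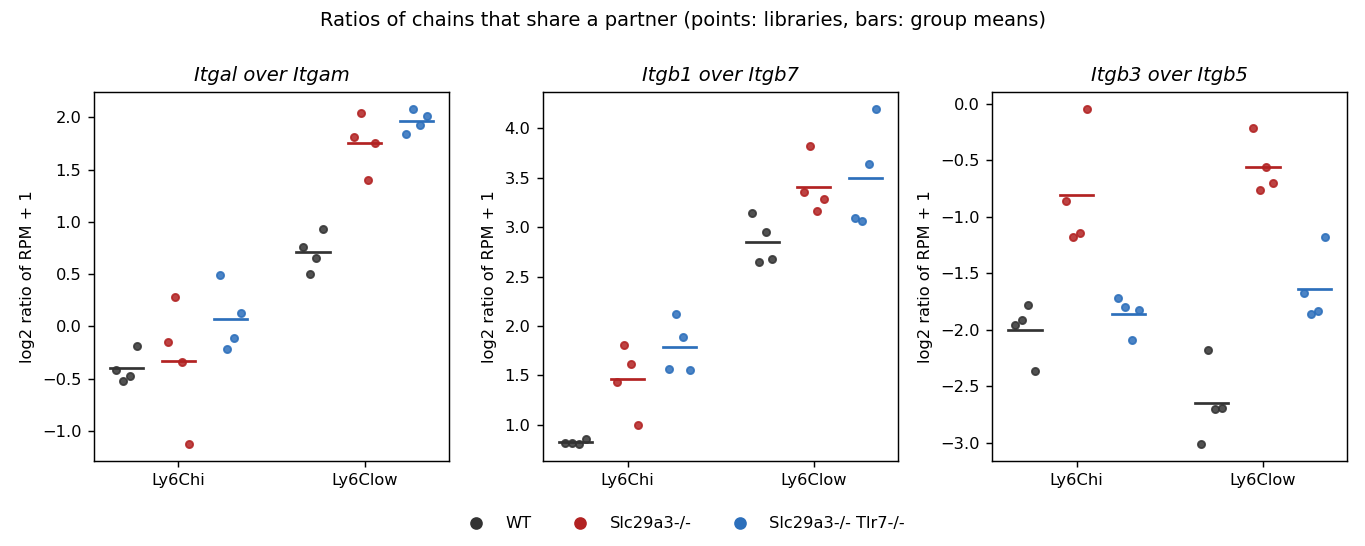
Log2 ratio of RPM of chains that share a partner, in each of the 6 groups: Itgal over Itgam, Itgb1 over Itgb7, and Itgb3 over Itgb5. Points are libraries and bars are means of 4. The first 2 ratios stand higher in Ly6Clow than in Ly6Chi cells, and the last stands highest in Slc29a3-/- cells of both subsets.

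Of 17 other integrin subunits, 16 were measured and 9 or 11 passed the filter on low values, depending on the fit. Between the subsets 2 higher and 4 lower in Ly6Clow cells of WT, 5 higher and 3 lower in Slc29a3-/-, and 4 higher and 3 lower in Slc29a3-/- Tlr7-/- mice were called of 11 tested, beside 25.9%, 35%, and 28.3% of all genes. The medians were -0.17, 0.26, and -0.09 on the log2 scale against -0.07, 0.10, and -0.12 over all genes. Itgax (CD11c, another alpha partner of Itgb2) was higher by 2.94, 4.34, and 3.59, and Itga1, a collagen receptor chain, was lower (log2 changes of -3.61, -3.39, and -3.99), as was Itga5, a fibronectin receptor chain (-1.06, -1.16, and -1.74). Itgb2l, which is also in the neutrophil list, was lower too (-4.85, -8.55, and -5.93). In Ly6Chi cells, Itgb2l was higher in Slc29a3-/- than in WT (1.68) and Slc29a3-/- Tlr7-/- cells (2.77), Itgax was lower (log2 changes of -1.05 and -1.003), and Itga8 was lower (-1.52 and -1.83). The counts of 9 tested were 1 higher and 4 lower against WT and 1 higher and 2 lower between the mutants (22.4% and 17.2% of all genes), and 0 of 9 were called in either direction for Slc29a3-/- Tlr7-/- against WT (1.42%). In Ly6Clow cells they were 2 higher and 0 lower for Slc29a3-/- and 1 higher and 0 lower for Slc29a3-/- Tlr7-/- against WT, the latter being Itgax (0.60), and 2 higher and 0 lower between the mutants, beside 4.43%, 8.31%, and 1.93% of all genes.

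Of 24 integrin ligands, 23 were measured and 11 or 12 were tested. In Ly6Clow against Ly6Chi cells 1 higher and 6 lower were called in WT, 4 higher and 4 lower in Slc29a3-/-, and 1 higher and 8 lower in Slc29a3-/- Tlr7-/- mice. All genes gave 8.46% higher and 17.5% lower, 18.5% and 16.5%, and 9.64% and 18.7%. The median ligand difference was -0.47, -0.10, and -0.85 on the log2 scale. Fn1, which encodes fibronectin, a ligand of Itga4 with Itgb1, was lower (log2 changes of -5.24, -5.47, and -7.10), whereas Icam2, a ligand of LFA-1, was higher by 0.75, 1.08, and 0.64. In Ly6Chi cells of Slc29a3-/- against WT mice 2 higher and 5 lower were called (22.4% of all genes), with Thbs1, a matrix ligand of alphav integrins, at -4.24, Tgfb1 at -0.96, and Mfge8, a bridging protein for alphav integrins, at -0.84. Among the higher was C3, at 0.76. Against Slc29a3-/- Tlr7-/- cells 2 higher and 6 lower were called (17.2% of all genes), among them Icam1, a ligand of LFA-1 and Mac-1, at -0.91, and C3 at 0.84. In Ly6Clow cells 2 higher and 1 lower were called for Slc29a3-/- against WT and 3 higher and 0 lower against Slc29a3-/- Tlr7-/- (4.43% and 1.93% of all genes), with F11r, a junction protein bound by LFA-1, at 2.12 and 2.15. C3 was higher than in Slc29a3-/- Tlr7-/- cells (1.78), and Tgfb1 was lower than in WT (-0.84). For Slc29a3-/- Tlr7-/- against WT the counts were 0 higher and 2 lower in Ly6Clow cells, with Fn1 at -1.65, and 0 higher and 0 lower in Ly6Chi cells (8.31% and 1.42% of all genes). Vcam1 is in both the ligand and the red pulp macrophage list.

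Of 32 integrin activators and adaptors, 31 were measured and 29 tested. Between the subsets 8 higher and 2 lower, 12 higher and 3 lower, and 6 higher and 3 lower were called in WT, Slc29a3-/-, and Slc29a3-/- Tlr7-/- mice. This stands beside 8.46% higher and 17.5% lower, 18.5% and 16.5%, and 9.64% and 18.7% of all genes. The medians were 0.26, 0.48, and 0.27 on the log2 scale. Ptk2b, a kinase downstream of integrins, was higher in Ly6Clow cells on the log2 scale by 1.83, 1.58, and 1.01, and Vcl, the adaptor vinculin, was lower (-0.85, -1.86, and -1.15). In Ly6Clow cells Syk, a kinase that relays integrin and Fc receptor signals, was higher than in WT by 1.16 in Slc29a3-/- and 1.002 in Slc29a3-/- Tlr7-/- cells, and the counts were 1 higher and 0 lower and 3 higher and 1 lower (4.43% and 8.31% of all genes). The 3 higher in Slc29a3-/- Tlr7-/- cells include Tln1, the talin that opens integrins (0.75), and Flna (0.78), and the 1 lower was Ptk2b (-0.62). In Ly6Chi cells of Slc29a3-/- mice 2 higher and 3 lower were called against WT and 2 higher and 3 lower against Slc29a3-/- Tlr7-/- (22.4% and 17.2% of all genes), with Parvg, a parvin of leukocytes, at 1.28 and 1.12 and Vcl at 0.76 and 0.76. Among the lower, Cyth1 stood at -0.61 and -0.76, Rapgef1 at -0.66 against WT, and Parvb at -0.83 against Slc29a3-/- Tlr7-/- cells. The counts were 0 higher and 0 lower for Slc29a3-/- Tlr7-/- against WT in Ly6Chi cells and 0 higher and 0 lower between the mutants in Ly6Clow cells (1.42% and 1.93% of all genes).

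For the 3 members with the widest span of group means, the genes of most similar pattern were found among 7482 genes as those with the smallest root mean square difference between centred log2 profiles over 24 libraries. They were Aurka (0.51), Tesk2 (0.58), and Hist1h1e (0.61) for Itga6, Pfkfb3 (0.47), Kcnip3 (0.62), and Sipa1l1 (0.64) for Itgb3, and Bcl6 (0.30), Myo1g (0.31), and Tmc6 (0.32) for Itgal. Pfkfb3, the nearest to Itgb3, had means of 99.4 RPM in WT, 289 in Slc29a3-/-, and 218 in Slc29a3-/- Tlr7-/- Ly6Clow cells.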

How the data were processed

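The authors deposited 1 table of RPM (reads per 1000000, 1 amplicon per gene, mm10), made from Ion AmpliSeq libraries of RNA with a RIN value over 7.3. Which of the tools named in the paper wrote it is not given in the sources used here. Values of 0.0001, which stand for 0 reads, were set to 0, and 27 gene names turned into dates were repaired.

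Libraries were grouped by their labels. Genes that reached 1 RPM in 4 or more libraries were analysed on the log2(RPM + 1) scale in limma 3.58.1 (R 4.3.3, eBayes with trend), over the 12 libraries of a subset for genotypes and over 24 for subset comparisons. Fold changes are on that scale, which understates changes of low genes. In WT, same-numbered Ly6Chi and Ly6Clow libraries deviated together in 4 of 4 pairs (r of 0.26 to 0.62 across genes), as did other numbers among replicates 1 to 3 (0.25 to 0.32) and not those with replicate 4 (-0.47 to -0.35), and the fit with genotype and number as a block called the same 7 members. A gene was called at a fold over 1.5 and a Benjamini-Hochberg adjusted P under 0.05 over all genes tested. The procedure was run on simulated data with libraries drawn independently. That setting does not cover a library that stands apart from its group, and its outcome is not given here. Members, lists, and tests were chosen with earlier results of these data known. List genes were named by rule, up to 4 called genes per direction by fold with a mean of at least 10 RPM, and a selection is printed. Positions come from GENCODE vM21.

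RPM totals move with abundant genes. TMM and RLE scaling raised the share of higher calls among all called genes from 36.4% to 54.6% and 49.2% for Slc29a3-/- against WT in Ly6Chi, from 22% to 38.5% and 39.1% for Slc29a3-/- Tlr7-/- against WT, and from 52.3% to 70.3% and 64.2% between the mutants. For Slc29a3-/- Tlr7-/- against WT in Ly6Clow it went from 27.4% to 39.7% and 49.1%. Scaling lowered it for the subset contrast of the Slc29a3-/- effect from 53.1% to 36.9% and 37.6%, and for that between the mutants from 49.3% to 29.4% and 28.3%.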

Additional observations from a re-analysis of the deposited data

Results flagged for a closer look

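In 6 of 60 groups of 4 libraries, 1 library stood farther from its nearest neighbour than Dixon's 95% limit allows, and chance alone gives about 1 in 20 such groups. In Ly6Chi WT cells, replicate 4 was the library apart for Itgal (highest, 1658.4 RPM), Itgb5 (highest, 152 RPM), and Itga6 (lowest, 18.6 RPM). The others were Itgb1 in Ly6Clow Slc29a3-/- Tlr7-/- cells (highest, replicate 2, 994 RPM), Itgb2 in Ly6Clow Slc29a3-/- cells (highest, replicate 2, 3768.8 RPM), and Itgb5 in Ly6Chi Slc29a3-/- Tlr7-/- cells (lowest, replicate 4, 127 RPM).

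The effect of Slc29a3 loss on Itgb3 differed between the subsets by 1.79 on the log2 scale (limma contrast, adjusted P = 5.81e-05).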

How the results depend on the processing

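Of 2697 values of single members under the alternatives, 2562 kept their direction and call, 64 were not called either way and changed sign, 50 lost the call, 21 gained it, and 0 called values changed sign. The cause of each change was not tested. With TMM and with RLE scaling the members called in Slc29a3-/- against WT came to 1 in Ly6Chi and 1 in Ly6Clow (2 and 2 as reported), and with RLE 1 was called in Slc29a3-/- Tlr7-/- against WT, Ly6Chi (0 as reported). With the fold limit and an unadjusted P under 0.05 (limma), 2 were called in that comparison, beside 12.6% of all genes. By the same rule 3 were called in the subset contrast of Slc29a3-/- against WT (1 as reported), beside 20.2%. With no filter the counts were 1 between the mutants in Ly6Chi, 1 for Slc29a3-/- against WT in Ly6Clow, and 0 between the mutants in Ly6Clow. Against WT replicate 4 alone they were 0 and 1 for Slc29a3-/- against WT in Ly6Chi and Ly6Clow, 0 for Slc29a3-/- Tlr7-/- against WT in Ly6Clow, 1 for WT subsets, and 0 for the contrast. A pseudocount of 0.1, a stricter filter (mean of 10 RPM), and a fit of all 24 libraries kept the counts of members within 1.5 times.

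The number of all genes called moved more. Against WT replicate 4 alone it was 156 and 35 for Slc29a3-/- (2368 and 457 as reported, Ly6Chi and Ly6Clow), 0 and 0 for Slc29a3-/- Tlr7-/- (150 and 857), 646 between WT subsets (2863), and 23 for the contrast (967). With the stricter filter these became 1577, 289, 34, 1864, and 623 in the same order without the Ly6Clow double mutant, with 74 between Ly6Clow mutants (199), 2569 between Slc29a3-/- subsets (3869), and 603 for the contrast of mutants (987). With no filter they were 19 for Slc29a3-/- Tlr7-/- against WT and 1041 between mutants in Ly6Chi (1819), and 223 and 282 against WT in Ly6Clow. The filters also change how many genes are tested, so these counts do not compare as shares. For genotypes, 7558 (Ly6Chi) and 7173 (Ly6Clow) were tested with the stricter filter and 23930 with none, in place of 10561 and 10317. The fit of 24 libraries gave 371 for Ly6Chi Slc29a3-/- Tlr7-/- against WT and 713, 1493, and 414 in Ly6Clow, and in the former a pseudocount of 0.1 gave 44 and the replicate block 43. Left out singly, Ly6Chi Slc29a3-/- replicate 4 took the contrasts to 644 and 563, and for that of mutants Ly6Chi Slc29a3-/- Tlr7-/- replicate 3 gave 655 and Ly6Clow Slc29a3-/- replicate 4 gave 656.

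With 1 library left out the members called ranged over 1 to 2 for Slc29a3-/- against WT, 0 to 2 for Slc29a3-/- Tlr7-/- against WT, and 1 to 3 between the mutants in Ly6Chi, over 1 to 3, 2 to 4, and 0 to 1 in Ly6Clow, over 7 to 8, 8 to 8, and 7 to 8 between subsets of WT, Slc29a3-/-, and Slc29a3-/- Tlr7-/-, and over 1 to 2 and 0 to 1 for the contrasts of Slc29a3-/- with WT and with Slc29a3-/- Tlr7-/-. A library left alone is assumed to vary like the others. The ratio differences without overlap cannot change sign when 1 library is left out, so their kept sign is no separate check.

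With the replicate block, 1 member was called in Slc29a3-/- against WT, Ly6Clow, and 2 in the subset contrast of that effect, the lost calls being Itgal (0.0805) and, in Slc29a3-/- Tlr7-/- against WT, Itgb5 (0.0672), and the gained one Itgb5 in the contrast (0.0334, all adjusted P). No other member call changed with it. Deviations of same-numbered libraries correlated over 0.1 in 4 of 24 pairs of genotypes (-0.19 to 0.15), where the libraries share only a number. Between subsets they did so in 3 of 4 Slc29a3-/- pairs (-0.08 to 0.26), 1 of 4 Slc29a3-/- Tlr7-/- pairs (-0.46 to 0.34), and all 4 WT pairs.

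TMM scaling moved the median log2 change of all genes from -0.14 to 0.02 for Slc29a3-/- against WT in Ly6Chi, and that of the contrasts from 0.15 and 0.20 to 0.00 and 0.03. Count models on reads rebuilt from RPM were planned and not run, because the deposited values are RPM.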
